A study of Mus musculus with 12 samples.

Results

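The 10 histone deacetylase (HDAC) genes Hdac1, Hdac2, Hdac3, Hdac8, Hdac4, Hdac5, Hdac7, Hdac6, Hdac10 and Hdac11 were followed through both subsets of myeloid-derived suppressor cells (MDSCs) in mouse liver tumors. They were found by gene symbol among the 24346 symbols of each expression table, and all 10 were present in all 12 libraries. The 6 groups of 2 libraries were monocytic (M-MDSC) and polymorphonuclear (PMN-MDSC) cells, each from mice given vehicle, MS-275 or CXD101. All mice were wild type in the labels. The study used female C57BL/6 J mice, 6 to 8 weeks old, with Hepa 1-6 cells, a mouse hepatoma line, implanted in the liver, and it kept mice whose share of MDSCs in blood was above 20%. MS-275 and CXD101, inhibitors of HDAC1, HDAC2 and HDAC3, were injected at 5 mg/kg daily for 10 days from day 10, and cells were collected on day 21. The methods describe this schedule and the RNA-seq for M-MDSCs, and the dosing behind the PMN-MDSC libraries is known here from the treatment label. Cells were sorted by flow cytometry, M-MDSCs as CD11b+ Ly-6C high Ly-6G- and PMN-MDSCs as CD11b+ Ly-6C intermediate Ly-6G+ cells. The labels do not say whether the 2 libraries of a group came from separate animals or pools. The paper calls the RNA-seq replicates biological in a figure legend on M-MDSCs, without saying whether each was an animal or a pool. It does not describe the PMN-MDSC libraries. A p-value measures the spread between libraries, and in PMN-MDSCs that spread may be technical.

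HDACs take acetyl groups off lysines of histones and of other proteins, and histone deacetylation is in general tied to closed chromatin and low transcription. Class I enzymes (HDAC1, HDAC2, HDAC3 and HDAC8) are mainly nuclear, and the first 3 act within corepressor complexes: HDAC1 and HDAC2 in NuRD, CoREST and SIN3, HDAC3 in NCoR/SMRT. Class IIa enzymes (HDAC4, HDAC5, HDAC7 and HDAC9) shuttle between nucleus and cytoplasm with 14-3-3 proteins, bind MEF2 transcription factors and have little deacetylase activity of their own. HDAC6, a class IIb enzyme, deacetylates tubulin in the cytoplasm, HDAC10 of the same class deacetylates polyamines, and HDAC11 is the class IV enzyme. The paper names HDAC1, HDAC2 and HDAC3 as the targets of both inhibitors. Its supplement also lists inhibition of HDAC11 by MS-275, and gives that by CXD101 as unknown. Levels of mRNA say nothing on enzyme activity.

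Values were deposited as FPKM, fragments scaled to transcript length and library size, so levels of different genes can be set side by side. Depth, worked out from the size of 1 read among low values, was about 9167220 to 11582400 reads in M-MDSC and 7635290 to 8875400 in PMN-MDSC libraries. The 6 measured polymorphonuclear markers (S100a8, S100a9, Cxcr2, Csf3r, Mmp8, Retnlg) summed to 10688 to 25572 FPKM in M-MDSCs and 68110 to 268440 in PMN-MDSCs. Ly6g was listed too but was not found among the gene symbols. The 6 monocytic markers summed to 1630 to 2708 FPKM in M-MDSCs and 684 to 1797 in PMN-MDSCs. The highest PMN-MDSC values came from Ly6c2 under the inhibitors (a mean of 1582 under MS-275 against 483 under vehicle), while Ccr2 stayed at 27.8 to 38.2 against 124 to 142 in M-MDSCs. Ly86 was also lower in PMN-MDSCs in each treatment, and Csf1r under the inhibitors. Other means were higher in PMN-MDSCs. Under vehicle, Csf1r was at 153 against 123 in M-MDSCs and Cx3cr1 at 1.35 against 0.523. Fcgr1 was at 19.3 against 6.69 under MS-275 and 22.5 against 10.3 under CXD101. Of the defining markers of other cells, Ncr1, Ttr and Hbb-bs were at 0 in every group mean, and the 6 lymphocyte and NK cell markers together stayed at or under 3.47 FPKM. Of the 5 markers listed for hepatocytes and liver tumor, Alb was at or under 0.0264 FPKM in every group, and Afp had group means of 1.05 to 2.03 FPKM. The sum of 40.6 to 272 FPKM was nearly all Trf. The 5 macrophage markers summed to 69.2 to 143 FPKM in M-MDSCs and 82.8 to 177 in PMN-MDSCs, lowest under MS-275 in both. Itgam, which encodes CD11b, had group means of 257 to 283 FPKM in M-MDSCs and 860 to 872 in PMN-MDSCs. Eosinophil markers went from 10.2 to 15.2 FPKM in vehicle M-MDSCs to 118 to 169 under the inhibitors, and were 49.0 to 66.9 in all PMN-MDSC libraries. S100a8 and S100a9, which encode the calprotectin subunits, made up 1.78 to 4.28% of the summed FPKM in M-MDSCs, 10.2 to 13.7% in vehicle PMN-MDSCs and 27.3 to 30.9% in inhibitor-treated PMN-MDSCs. A rescaling of every library to the same FPKM total (TPM) therefore moved the median difference of all genes from -0.01 to -0.17 on the log2 scale for PMN-MDSC minus M-MDSC under vehicle, to -0.49 under MS-275 and to -0.44 under CXD101, and to -0.34 for each inhibitor against vehicle in PMN-MDSCs. In bulk libraries, fewer cells of a type and less RNA per cell cannot be told apart. Differences are given from the FPKM as deposited. For the HDAC genes the TPM value follows where it turned a direction or ended a call, and for the gene lists the counts of calls are given under both.

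In vehicle PMN-MDSCs the order of the mean levels was Hdac1 (57.2 FPKM), Hdac3 (25.6), Hdac2 (24.7), Hdac5 (20.7), Hdac4 (14.4), Hdac7 (11.9), Hdac10 (3.55), Hdac8 (3.33), Hdac6 (3.23) and Hdac11 (0.0491). The libraries of Hdac3 and Hdac2 overlapped, as did those of Hdac8 and Hdac6, and the other neighbours in this order did not. In vehicle M-MDSCs the order was Hdac1 (87.1), Hdac2 (38.9), Hdac3 (33.2), Hdac5 (21.9), Hdac4 (10.3), Hdac6 (5.11), Hdac7 (3.89), Hdac8 (3.41), Hdac10 (1.40) and Hdac11 (0.126), and only Hdac7 and Hdac8 overlapped. Hdac1 headed the order in all 6 groups, and Hdac11 came last. Hdac7 held rank 7 in vehicle M-MDSCs and rank 6 in M-MDSCs under either inhibitor. In PMN-MDSCs it held rank 6 under vehicle and rank 3 under either inhibitor, above Hdac2. Under MS-275 its PMN-MDSC libraries overlapped those of Hdac5.

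**Figure D1:**
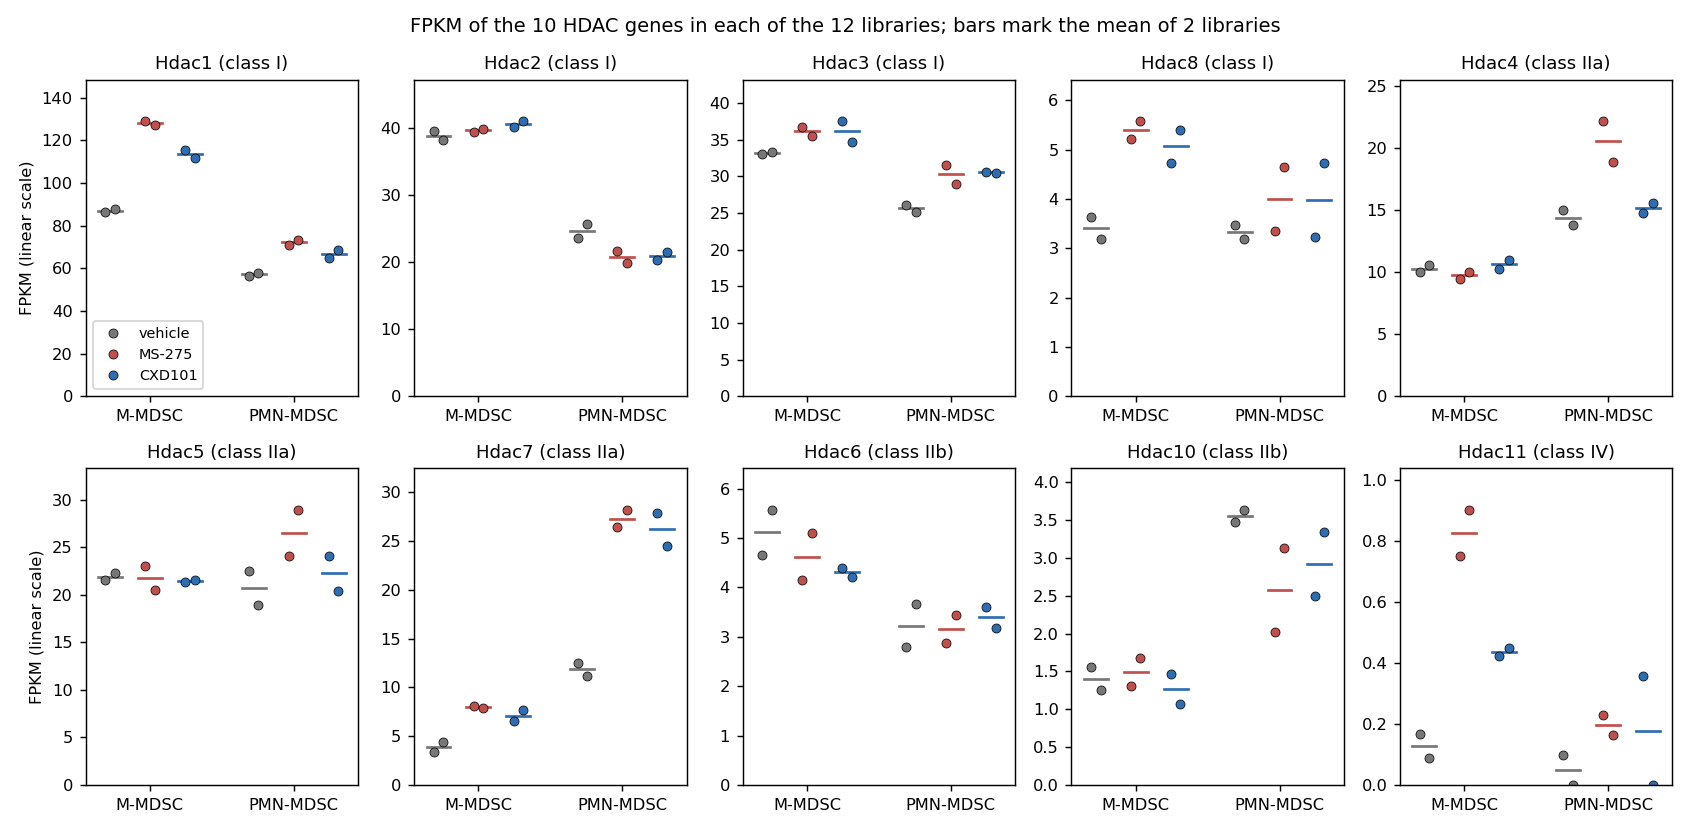
FPKM (vertical axes, linear, from 0) of the 10 HDAC genes in each library; each point is 1 library, each bar the mean of 2 libraries, and colors mark vehicle, MS-275 and CXD101 in M-MDSCs (left) and PMN-MDSCs (right). Hdac1, Hdac2, Hdac3 and Hdac6 lie lower in all 6 PMN-MDSC libraries than in any M-MDSC library, and Hdac4, Hdac7 and Hdac10 lie higher.

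The question of the comparison between subsets was which HDAC genes the polymorphonuclear subset expressed at another level than the monocytic subset. Over the 6 libraries of each subset, 4 genes lay lower in every PMN-MDSC library (Hdac1, Hdac2, Hdac3, Hdac6), 3 lay higher (Hdac4, Hdac7, Hdac10), and Hdac8, Hdac5 and Hdac11 overlapped. Such separation was common: 47.3% of the 11662 genes tested had ranges that did not overlap, 24.1% with PMN-MDSCs higher and 23.2% lower. Genes were called at an adjusted p under 0.05 (limma on log2(FPKM + 1), Benjamini-Hochberg over all genes tested) with a fold change above 1.5, which is 0.58 on the log2 scale. Of the 9 HDAC genes that passed the minimum of 1 FPKM in at least 2 libraries, 4 were called under vehicle (Hdac1, Hdac2, Hdac7 and Hdac10), where 34% of all genes tested were called. Under MS-275 4 of 9 were called (50.4% of all genes), under CXD101 4 of 9 (49% of all genes), and for the mean of the 3 treatments 5 of 9 (44.9% of all genes). These shares of the family were near the shares of all genes. The median difference of the 9 genes was -0.08 under vehicle, -0.25 under MS-275 and -0.23 under CXD101, beside medians of -0.01, 0.01 and 0.01 over all genes tested.

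Hdac1 encodes the class I enzyme that supplies the catalytic subunit of NuRD, CoREST and SIN3 together with its paralog HDAC2. In vehicle libraries it was at 86.3 and 87.8 FPKM in M-MDSCs and at 56.4 and 58.0 in PMN-MDSCs. It was at 129 and 127 in M-MDSCs and 71.0 and 73.4 in PMN-MDSCs under MS-275, and at 116 and 112 against 65.0 and 68.7 under CXD101. The lowest M-MDSC library was above the highest PMN-MDSC library. PMN-MDSCs were lower by a log2 difference of -0.60 under vehicle (standard error 0.0532, adjusted p = 3.50e-06), -0.82 under MS-275 and -0.76 under CXD101, all called. Of 1938 windows of 101 bases, the read length, in the Hdac1 transcript, 902 (46.5%) also occur in annotated transcripts of Gm10093, Gm4864 or AC125456.1, so its level is uncertain by the reads those copies share.

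Hdac2 was at 39.6 and 38.3 FPKM in vehicle M-MDSCs and at 23.7 and 25.7 in vehicle PMN-MDSCs. In M-MDSCs it was at 39.5 and 39.9 under MS-275 and 40.2 and 41.1 under CXD101, and in PMN-MDSCs at 21.7 and 19.9 and at 20.4 and 21.6. Its 6 M-MDSC libraries spanned 38.3 to 41.1 FPKM across treatments, and the 6 PMN-MDSC libraries 19.9 to 25.7. The log2 difference was -0.64 under vehicle (standard error 0.0690, adjusted p = 1.53e-05), -0.90 under MS-275 and -0.92 under CXD101, all called. Without PMN-MDSC vehicle replicate 1, the vehicle differences of Hdac1 and Hdac2 were -0.58 each, just inside the fold limit, and 2 genes of the family were called.

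Hdac3, the catalytic subunit of the NCoR/SMRT corepressors, was at 33.0 and 33.3 FPKM in vehicle M-MDSCs and at 26.1 and 25.2 in vehicle PMN-MDSCs. Across treatments it spanned 33.0 to 37.6 FPKM in M-MDSCs and 25.2 to 31.6 in PMN-MDSCs. The separation was small: -0.36 under vehicle (adjusted p = 7.54e-04), -0.25 under MS-275 and -0.23 under CXD101 passed the adjusted p of limma but not the fold limit. With TPM scaling Hdac3 was called under MS-275 (-0.81) and CXD101 (-0.75). Hdac8, the class I enzyme that works outside these complexes and deacetylates cohesin, spanned 3.20 to 5.58 FPKM in M-MDSCs and 3.19 to 4.72 in PMN-MDSCs. Its differences of -0.03, -0.37 and -0.30 did not pass (lowest adjusted p = 0.0614 from limma), with a 95% confidence interval of -0.39 to 0.34 under vehicle, though TPM scaling gave calls of -0.83 under MS-275 and -0.73 under CXD101. With each library left out in turn, the Hdac8 difference ranged from -0.56 to -0.18 under MS-275 and from -0.52 to -0.08 under CXD101, the ends being set by the 2 PMN-MDSC libraries of that inhibitor.

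Hdac7, a class IIa gene known from thymocytes and endothelium, differed most between the subsets. It was at 3.39 and 4.40 FPKM in vehicle M-MDSCs and at 12.6 and 11.2 in vehicle PMN-MDSCs. Under MS-275 it was at 8.07 and 7.88 in M-MDSCs against 26.4 and 28.2 in PMN-MDSCs, and under CXD101 at 6.50 and 7.70 against 27.9 and 24.5. The highest M-MDSC library, of an MS-275 group, was below the lowest vehicle PMN-MDSC library. PMN-MDSCs were higher by a log2 difference of 1.40 under vehicle (standard error 0.119, adjusted p = 2.46e-06), 1.66 under MS-275 and 1.75 under CXD101, and by 1.26, 1.12 and 1.26 with TPM scaling, with a call in each case. In GRCm38 it spans 97792664 to 97844502 of chromosome 15, minus strand, and shares 29 exonic bases with Slc48a1 on the other strand; whether reads were counted by strand is not given in the sources used here.

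Hdac4 was at 9.996 and 10.5 FPKM in vehicle M-MDSCs and at 15.0 and 13.8 in vehicle PMN-MDSCs. In PMN-MDSCs it was at 22.1 and 18.9 under MS-275 and at 14.7 and 15.6 under CXD101, beside 9.44 and 10.01 and 10.3 and 10.99 in M-MDSCs. Hdac4 was thus highest in the MS-275 libraries of PMN-MDSCs, which did not overlap any other group. Of the 3 treatments, the difference between subsets was called under MS-275 alone, at 1.001 (standard error 0.0919, adjusted p = 2.39e-06), and was 0.45 under vehicle and 0.47 under CXD101, past the adjusted p of limma and under the fold limit. With TPM scaling it was 0.47 under MS-275, no longer called, and -0.01 under CXD101, so that its direction under CXD101 depended on the scaling. Hdac4 shares 3536 exonic bases with the noncoding gene Gm26720 on the other strand. Its level may hold reads of that gene if reads were not counted by strand. Hdac5, the most abundant class IIa gene in vehicle cells, spanned 20.5 to 23.1 FPKM in M-MDSCs and 19.0 to 29.0 in PMN-MDSCs. Its differences of -0.08, 0.27 and 0.05 were not called, and TPM scaling turned the values under MS-275 and CXD101 negative (-0.28 and -0.45).

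The DNA before the start sites of Hdac2, which was lower in PMN-MDSCs, and of Hdac4 and Hdac7, which were higher, is shown because these genes moved in opposite directions between the subsets. Sequences are the 250 bases before an annotated start, 5′ to 3′ on the gene's strand, from the RefSeq promoter table of build GRCm38.p6, which had entries for 7 of the 10 genes (not Hdac1, Hdac3 and Hdac10). Capitals mark the GC box, GGGCGG, which is the core of an SP1 site, and the box named for its letters CCAAT, each on either strand. The Hdac2 window lies at chr10:36974294-36974543 on the plus strand. The Hdac4 window, at chr1:92180342-92180591 on the minus strand, is that of an inner start, inside the annotated gene. The windows of the outermost and of an inner Hdac7 start lie at chr15:97844503-97844752 and chr15:97831768-97832017 on the minus strand.
Hdac2: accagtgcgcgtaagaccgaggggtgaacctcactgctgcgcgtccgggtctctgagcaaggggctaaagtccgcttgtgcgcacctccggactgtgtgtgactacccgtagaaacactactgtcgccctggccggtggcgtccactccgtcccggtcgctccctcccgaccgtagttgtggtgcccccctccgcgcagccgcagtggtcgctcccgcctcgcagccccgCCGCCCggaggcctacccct
Hdac4: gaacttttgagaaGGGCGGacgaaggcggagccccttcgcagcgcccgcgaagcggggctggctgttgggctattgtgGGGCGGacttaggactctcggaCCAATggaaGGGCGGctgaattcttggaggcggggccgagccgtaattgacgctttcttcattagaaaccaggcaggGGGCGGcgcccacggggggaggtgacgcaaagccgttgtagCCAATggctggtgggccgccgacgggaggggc
Hdac7, outermost start: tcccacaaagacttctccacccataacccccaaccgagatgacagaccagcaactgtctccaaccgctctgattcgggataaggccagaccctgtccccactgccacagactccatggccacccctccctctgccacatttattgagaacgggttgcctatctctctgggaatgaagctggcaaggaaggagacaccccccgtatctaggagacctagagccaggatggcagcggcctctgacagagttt
Hdac7, inner start: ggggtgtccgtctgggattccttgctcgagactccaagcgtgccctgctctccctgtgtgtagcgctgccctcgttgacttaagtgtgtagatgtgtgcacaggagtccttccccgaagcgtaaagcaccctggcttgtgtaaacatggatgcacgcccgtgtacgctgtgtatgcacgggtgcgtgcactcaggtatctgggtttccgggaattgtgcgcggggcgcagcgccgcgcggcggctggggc
The Hdac4 window held 4 GC boxes and 2 CCAAT boxes, the Hdac2 window 1 GC box and 0 CCAAT boxes, and neither of these Hdac7 windows either motif. Of the 4 Hdac7 windows in the table, 1 that overlaps an annotated exon and is not shown held a GC box. Of all 32851 windows in the table, 32.7% held a GC box and 33.8% a CCAAT box. The Hdac2 window had 27 CpG dinucleotides, the Hdac4 window 23 and the inner Hdac7 window 21, while the outermost Hdac7 window had 6, which is the median of all windows. TATAAA, found in 12.4% of all windows, and GAGGAA, a core bound by the myeloid factor PU.1 and found in 23.3%, were in none of these 4 windows on either strand. The 250 bases are letters of the reference, and which start site was used in these cells was not measured by a value per gene.

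Hdac6, the cytoplasmic tubulin deacetylase, was at 4.65 and 5.57 FPKM in vehicle M-MDSCs and at 2.79 and 3.66 in vehicle PMN-MDSCs. It spanned 4.15 to 5.57 FPKM across M-MDSC libraries and 2.79 to 3.66 across PMN-MDSC libraries. The log2 differences were -0.54 under vehicle (adjusted p = 0.00690), -0.44 under MS-275 (adjusted p = 0.0164) and -0.28 under CXD101 (adjusted p = 0.1004, all from limma), none past the fold limit as deposited and all 3 past both limits with TPM scaling, at -0.69, -0.88 and -0.69.

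Hdac10, the polyamine deacetylase, went the other way. It was at 1.55 and 1.25 FPKM in vehicle M-MDSCs and at 3.47 and 3.64 in vehicle PMN-MDSCs, on an estimated 22.9 to 69.5 reads per library. Under MS-275 it was at 1.31 and 1.67 against 2.02 and 3.12, and under CXD101 at 1.46 and 1.07 against 2.49 and 3.34. The subsets did not overlap, although the PMN-MDSC libraries under either inhibitor were spread wider than those under vehicle. PMN-MDSCs were higher by 0.92 under vehicle (standard error 0.177, adjusted p = 9.60e-04) and by 0.79 under CXD101, both called, and by 0.51 under MS-275, under the fold limit. The MS-275 value rested on single libraries: it was 0.73 and called without PMN-MDSC MS-275 replicate 1, 0.61 and called without M-MDSC MS-275 replicate 2, and 0.28 without PMN-MDSC MS-275 replicate 2. With TPM scaling it was 0.13. With TPM scaling the difference under CXD101 was 0.44 and no longer called.

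Hdac11, whose loss has been tied to the function of MDSCs, did not reach the FPKM minimum and was left out of the main test. In M-MDSCs it was at 0.166 and 0.0866 FPKM under vehicle, 0.752 and 0.903 under MS-275 and 0.424 and 0.449 under CXD101. In PMN-MDSCs it was at 0.0981 and 0 under vehicle, 0.228 and 0.162 under MS-275 and 0.356 and 0 under CXD101. These levels rest on 0 to 21.4 estimated reads per library. Hdac11 also shares 594 exonic bases with Gm44002 and 96 with Gm14573, both on the other strand. The M-MDSC and PMN-MDSC libraries did not overlap under MS-275, on 21.4 and 20.3 against 4.28 and 3.21 estimated reads. When the minimum was dropped, Hdac11 was lower in PMN-MDSCs by -0.61 under MS-275 (adjusted p = 0.00290) and was called, while its differences of -0.10 under vehicle (adjusted p = 0.592) and -0.30 under CXD101 (adjusted p = 0.0739, all from limma) were not. Hdac9, the class IIa gene outside the list, also stayed under the minimum, at 0.291 to 1.06 FPKM in M-MDSCs and 0.315 to 0.899 in PMN-MDSCs.

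**Figure D2:**
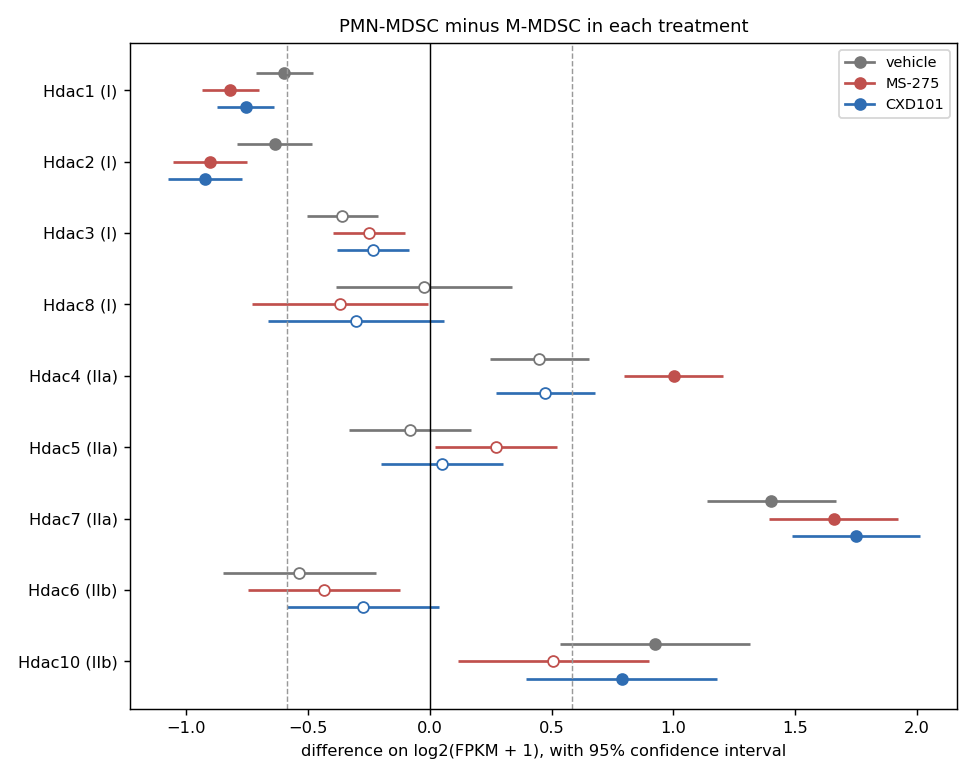
Difference PMN-MDSC minus M-MDSC on log2(FPKM + 1) (horizontal axis) for the 9 tested HDAC genes under vehicle, MS-275 and CXD101; points are limma estimates from 2 libraries per group, lines 95% confidence intervals, filled points called genes and dashed lines the fold limit of 1.5. Hdac1 and Hdac2 are filled below 0 and Hdac7 above 0 in all 3 treatments, with Hdac7 at 1.40, 1.66 and 1.75, and Hdac4 is filled under MS-275 alone.

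The next comparisons asked whether the level of the HDAC genes changed in PMN-MDSCs of mice given either inhibitor. Hdac7 was the only one of 9 tested HDAC genes that was called, and it rose under both inhibitors. From 12.6 and 11.2 FPKM under vehicle it went to 26.4 and 28.2 under MS-275 and to 27.9 and 24.5 under CXD101, with no overlap with vehicle. The log2 difference was 1.14 under MS-275 (95% confidence interval 0.91 to 1.37, adjusted p = 7.53e-05) and 1.08 under CXD101 (0.85 to 1.31, adjusted p = 1.59e-04, both from limma on the 6 PMN-MDSC libraries). With TPM scaling it was 0.81 and 0.75, still called. Of all 11184 genes tested in PMN-MDSCs, 28.7% were called under MS-275 and 21.4% under CXD101, beside 11.1% (1 of 9) of the HDAC genes. Both contrasts share the vehicle libraries. The S100a8 and S100a9 share of the FPKM and the polymorphonuclear marker sum (68110 to 93742 under vehicle, 234492 to 268440 under the inhibitors) were higher in the same 4 libraries, and their part in the result was not tested.

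None of the genes of the 3 enzymes that the inhibitors target was called in PMN-MDSCs. Hdac1 was higher by 0.33 under MS-275 (adjusted p = 0.00380) and by 0.22 under CXD101 (adjusted p = 0.0269), and Hdac3 by 0.23 and 0.25 (adjusted p = 0.0351 and 0.0341, limma), all under the fold limit. With TPM scaling these 4 values were -0.01, -0.12, -0.11 and -0.09, so their directions depended on the scaling. Hdac2, the third target, went the other way, by -0.24 under MS-275 and -0.22 under CXD101. It did not pass the adjusted p of limma (0.0514 and 0.0702). Hdac4 was 0.48 higher under MS-275 (adjusted p = 0.00564), past the adjusted p of limma and not the fold limit, and 0.07 higher under CXD101 (adjusted p = 0.606 from limma), which was -0.26 with TPM scaling. Without PMN-MDSC MS-275 replicate 2, Hdac4 under MS-275 was 0.59 and called. The remaining tested genes, Hdac8, Hdac5, Hdac6 and Hdac10, lay between -0.37 and 0.34 under MS-275, and with Hdac4 between -0.23 and 0.18 under CXD101. They did not pass the adjusted p of limma (lowest 0.0555 and 0.354).

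The methods give the same dose for MS-275 and CXD101, and 0 of 9 HDAC genes were called between them in PMN-MDSCs, where 0.805% of all genes were called by limma. The adjusted p alone was passed by 1.17% of all genes. At an unadjusted p under 0.05, 1 of the 9 differed. This was Hdac4, higher under MS-275 by 0.41 (95% confidence interval 0.17 to 0.65, adjusted p = 0.131 from limma). Hdac7 differed by 0.06, with an interval of -0.17 to 0.29, so a difference of up to 0.29 between the 2 compounds cannot be told from none. The half-widths of the intervals of the 9 genes ran from 0.15 to 0.44.

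In M-MDSCs Hdac7 was also the only HDAC gene called, by 0.88 under MS-275 (adjusted p = 8.71e-04; 17.5% of all genes called) and by 0.73 under CXD101 (adjusted p = 0.00545; 8.13% of all genes called, limma on the 6 M-MDSC libraries). Without M-MDSC vehicle replicate 1 its CXD101 difference was 0.58 and no longer called. The polymorphonuclear marker sum was 10688 to 11479 FPKM in vehicle M-MDSCs and 21022 to 25572 under the inhibitors, and its part in the result was not tested. Hdac1 was higher by 0.55 and 0.38 and Hdac8 by 0.54 and 0.46, past the adjusted p of limma and under the fold limit. The other 6 tested genes lay between -0.20 and 0.12.

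**Figure D3:**
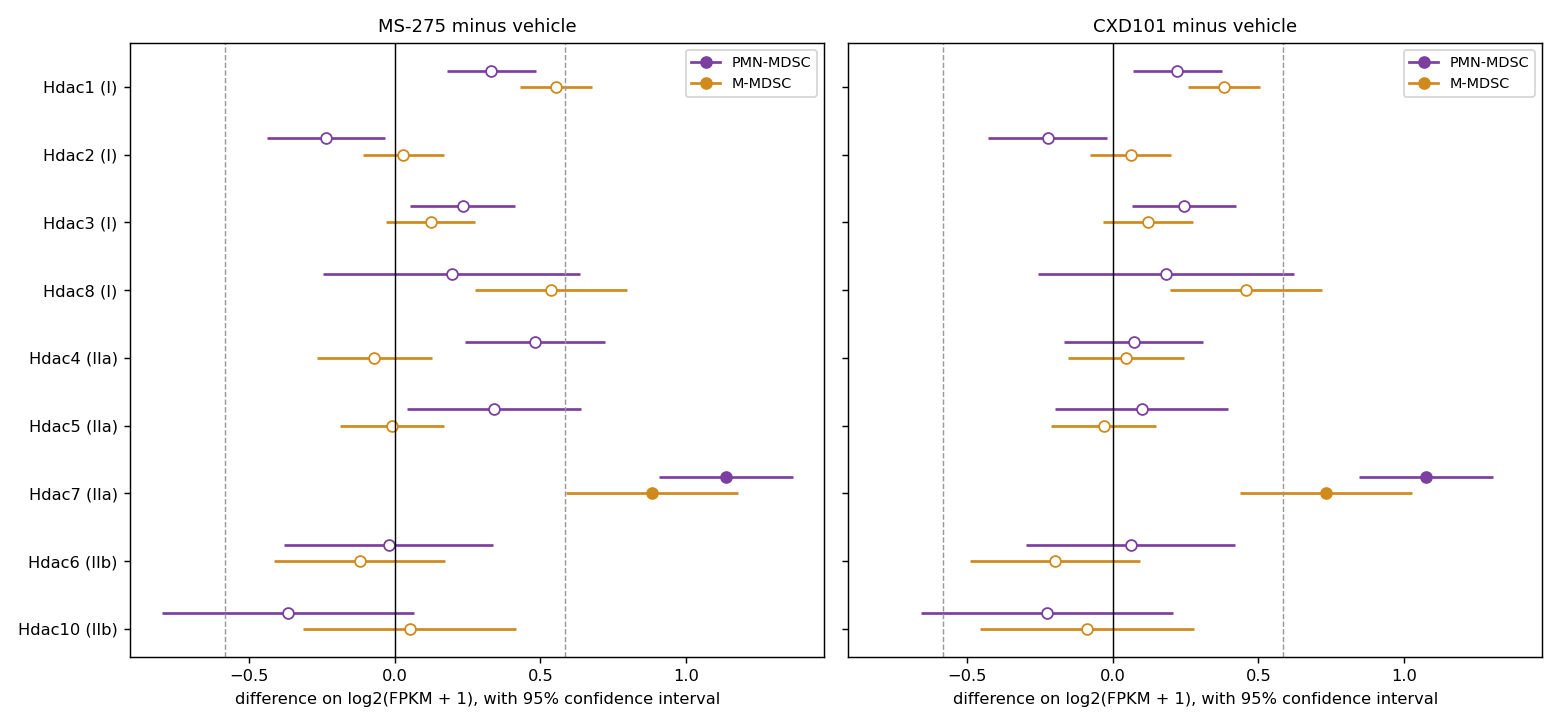
Difference inhibitor minus vehicle on log2(FPKM + 1) (horizontal axes) for MS-275 (left) and CXD101 (right) in PMN-MDSCs and M-MDSCs; points are limma estimates from 2 libraries per group, lines 95% confidence intervals, filled points called genes and dashed lines the fold limit of 1.5. Hdac7 is the only filled gene in each subset, at 1.14 and 1.08 in PMN-MDSCs and at 0.88 and 0.73 in M-MDSCs.

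Whether the 2 subsets responded differently was tested as the difference of the responses in 1 model of the 12 libraries. By this limma test 0 of 9 HDAC genes were called for MS-275, where 18.1% of all genes were, and 0 of 9 for CXD101, where 13.9% were. At an unadjusted p under 0.05, 3 of 9 differed for MS-275 and 1 of 9 for CXD101. Even the adjusted p alone was passed by 30.99% of all genes for MS-275 and 24.2% for CXD101. Hdac4 came nearest, with a response to MS-275 that was 0.55 above that of M-MDSCs in PMN-MDSCs (95% confidence interval 0.26 to 0.84, adjusted p = 0.00934), just under the fold limit. Its M-MDSC libraries spanned 9.44 to 10.99 FPKM in all 3 treatments. For CXD101 the same difference was 0.03. The response of Hdac1 to MS-275 was lower in PMN-MDSCs by -0.22 (adjusted p = 0.0468, limma), and past both limits, at -0.61, with TPM scaling. For Hdac7 the differences of the responses were 0.25 (-0.12 to 0.63) and 0.35 (-0.03 to 0.72), and -0.14 and -0.0020 with TPM scaling, so that a larger response in either subset was not shown.

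Shares within a library do not change when a whole library is multiplied by 1 factor, as in all the scalings tried but quantile normalization. Of the summed FPKM of the 10 genes, class I genes made up 79.7 and 78.7% in vehicle M-MDSCs and 66.0 and 68.6% in vehicle PMN-MDSCs. Class IIa genes (Hdac4, Hdac5, Hdac7) made up 17.1 and 18.003% against 30.2 and 26.9%. Under the inhibitors the class IIa share was 15.1 to 16.8% in M-MDSCs and 31.4 to 36.3% in PMN-MDSCs, so the subsets stood further apart than under vehicle. The Hdac7 share in PMN-MDSCs was 7.56 and 6.87% under vehicle, 12.9 and 13.5% under MS-275 and 14.5 and 12.7% under CXD101. In M-MDSCs the mean Hdac7 share was 1.89% under vehicle, 3.12% under MS-275 and 2.95% under CXD101. The mean Hdac1 share in PMN-MDSCs was 34.7% under vehicle, 34.8% under MS-275 and 34.7% under CXD101, and in M-MDSCs 42.4, 50.1 and 47.2%. The mean Hdac2 share was 19.0, 15.5 and 16.9% in M-MDSCs and 15.0, 10.02 and 10.9% in PMN-MDSCs. These shares were given no test. Taken over the 4 class I genes alone, Hdac1 held 53.6% in vehicle M-MDSCs and 51.6% in vehicle PMN-MDSCs, Hdac2 23.95% and 22.3%, and Hdac3 20.4% and 23.1%, so that Hdac3 was a larger part of class I in PMN-MDSCs while its share of all 10 genes was 16.2% and 15.6%.

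**Figure D4:**
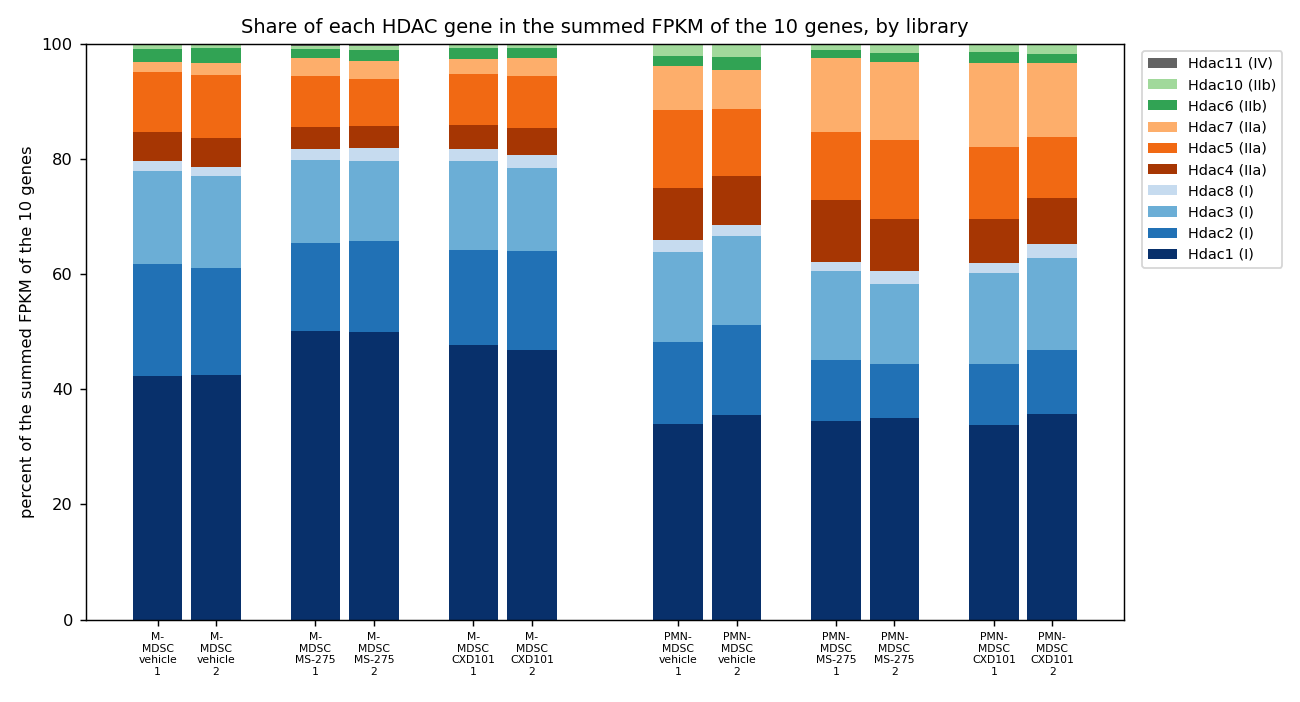
Share of each HDAC gene in the summed FPKM of the 10 genes (vertical axis, percent, from 0) in each of the 12 libraries; blue marks class I, orange class IIa, green class IIb and grey class IV. The orange band is 15.1 to 18.003% in the 6 M-MDSC bars and 26.9 to 36.3% in the 6 PMN-MDSC bars.

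Ratios of 2 genes in the same library showed the same pattern. Hdac1 mRNA was 25.5 and 19.97 times that of Hdac7 in vehicle M-MDSCs and 14.5 to 17.8 times in inhibitor-treated M-MDSCs. In PMN-MDSCs it was 4.49 and 5.17 times under vehicle and 2.33 to 2.81 times under the inhibitors. The Hdac1 to Hdac2 ratio did not separate the subsets under vehicle (2.18 and 2.29 in M-MDSCs, 2.38 and 2.25 in PMN-MDSCs). It was 2.72 to 3.27 in inhibitor-treated M-MDSCs and 3.19 to 3.69 in inhibitor-treated PMN-MDSCs, above vehicle in all 8 libraries. Hdac7 was at 0.558 and 0.591 times Hdac5 in vehicle PMN-MDSCs and at 0.974 to 1.20 times in the 4 inhibitor-treated ones. In M-MDSCs this ratio was also higher under the inhibitors, at 0.305 to 0.384 against 0.157 and 0.197 under vehicle.

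The genes of the complexes in which these enzymes work were taken from lists. Of the 11 NuRD genes, 1 was called higher and 3 lower in vehicle PMN-MDSCs than in M-MDSCs, with a list median of -0.26 beside -0.01 over all genes tested. That is 4 of 11 called, where 34% of all genes were, and the shares of all genes under MS-275 and CXD101 were 50.4% and 49%. The histone-binding subunits Rbbp7 (-1.08) and Rbbp4 (-0.65) and the subunit Mta1 (-0.62) were lower, and Mbd2, which reads methylated DNA, was higher (0.66). With either inhibitor 1 was higher and 4 lower, Mbd3 (-1.14 and -0.92) being the addition, while Rbbp7 reached -1.23 and -1.48 and Mbd2 1.31 and 1.11. Of the 6 CoREST genes 1 was called under vehicle, Phf21a, whose product binds unmethylated histone H3 (1.33). It was 1.40 and 1.34 under MS-275 and CXD101, where the corepressor Rcor2 was called lower at -1.58 and -0.77. Of the 11 SIN3 genes 0 were called by limma under vehicle (7 at an unadjusted p under 0.05) and 2 under each inhibitor, Arid4a (0.94 and 0.77) and Arid4b (1.08 and 0.87). Of the 5 NCoR/SMRT genes only Ncor1 under MS-275 was called, at 0.68. At an unadjusted p under 0.05 this list held 5 of 5 under vehicle and 4 of 5 under each inhibitor. Even the adjusted p of limma was passed by 62.0% of all genes under vehicle, 74.5% under MS-275 and 73.5% under CXD101. The vehicle medians of the CoREST, SIN3 and NCoR/SMRT lists were 0.21, 0.18 and 0.24. With TPM scaling the NuRD list held 0 higher and 5 lower under vehicle and 1 higher and 6 lower under each inhibitor. The SIN3 list then held 0 higher and 2 lower under each inhibitor in place of 2 higher and 0 lower. The NCoR/SMRT list held 1 lower under each. Of all genes, TPM scaling called 1535 higher and 2840 lower under vehicle, 1401 and 5265 under MS-275, and 1429 and 4973 under CXD101. As deposited, 11662 genes were tested. Across 5 scalings, the FPKM as deposited included, the calls of Mbd2 under vehicle and of Arid4a, Arid4b and Ncor1 were lost in at least 1, those of the other genes named here were called in all 5, and no direction of these calls turned. The lowest values were 0.48 for Mbd2 under vehicle, 0.42 and 0.29 for Arid4a and 0.58 and 0.42 for Arid4b under MS-275 and CXD101, and 0.12 for Ncor1 under MS-275.

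Among 10 tested partners of class IIa enzymes, the MEF2 factors and 14-3-3 proteins, 2 were higher and 1 lower in vehicle PMN-MDSCs, 3 of 10 beside 34% of all genes. Mef2a was higher at 0.62 and the 14-3-3 gene Sfn at 1.12, and Mef2c was lower at -0.996. Under MS-275 and CXD101 2 were higher and 3 lower, 5 of 10 beside 50.4% and 49% of all genes: Mef2c was at -1.09 and -1.05, Mef2a at 0.90 and 0.72 and Sfn at 1.08 and 0.89, with the 14-3-3 genes Ywhaq (-0.75 under MS-275) and Ywhae (-0.77 under CXD101) lower. Of the 7 sirtuins, the deacetylases that depend on NAD, Sirt2 (0.75) and Sirt7 (0.80) were called higher in vehicle PMN-MDSCs, 2 of 7. Under MS-275 3 of 7 were called higher and under CXD101 4 of 7, with Sirt7 at 1.10 and 0.98 and Sirt6 at 0.84 and 0.62. In at least 1 of the 5 scalings the calls of Sirt2 and Mef2a in each treatment, and of Sirt7, Sirt6 and Sfn under the inhibitors, were lost. No direction of these calls turned in any of them, and the lowest values under MS-275 were 0.17 for Sirt2, 0.54 for Sirt7, 0.31 for Sirt6, 0.34 for Mef2a and 0.57 for Sfn. The counts did turn, under a scaling that moved the calls of all genes toward lower. Of all genes, TPM scaling called 1401 higher and 5265 lower under MS-275, and 1429 and 4973 under CXD101. With TPM scaling 0 sirtuins were called higher under either inhibitor, 2 were called lower under MS-275, Sirt3 (-0.92) and Sirt5 (-0.72), and 1 under CXD101, Sirt3 (-0.88), and the class IIa partners held 0 higher and 4 lower under each inhibitor.

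Within PMN-MDSCs 28.7% of all genes were called under MS-275 and 21.4% under CXD101. Of the 11 NuRD genes, 2 were called higher and 1 lower under MS-275, and 1 higher and 1 lower under CXD101. Chd3, a chromatin remodeler of NuRD, rose by 2.08 with MS-275 and by 2.04 with CXD101. Mbd3 was lower, at -1.41 and -0.98. Mta3, another NuRD subunit, was called under MS-275 at 0.62. Sirt4, a mitochondrial sirtuin, rose by 1.33 and 1.11. Ywhae was lower at -0.59 and Sfn higher at 0.59 under MS-275, and these and Mta3 were called in 3 of the 5 scalings. The CoREST, SIN3 and NCoR/SMRT lists held 0 genes called by limma under either inhibitor in PMN-MDSCs, of 5, 11 and 5 tested. At an unadjusted p under 0.05 these lists held 3, 6 and 4 genes with MS-275 and 1, 5 and 3 with CXD101. Even the adjusted p of limma was passed by 53.7% of all genes with MS-275 and 45.3% with CXD101. With TPM scaling 1 CoREST and 3 SIN3 genes were called lower under MS-275, and 3 SIN3 genes and 1 NCoR/SMRT gene under CXD101. Of all genes, this scaling called 926 higher and 3519 lower under MS-275, and 733 and 3130 under CXD101. As deposited, 11184 genes were tested. In M-MDSCs Chd3 rose by 1.99 and 1.98 and the mitochondrial sirtuin Sirt3 by 0.75 and 0.74. Between subsets, the response of Mbd3 was lower in PMN-MDSCs by -0.88 for MS-275 and -0.66 for CXD101, and that of Sirt4 higher by 0.78 and 0.87, each called, although Sirt4 was called in 4 of the 5 scalings.

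Across the 12 libraries the genes closest to Hdac7 were Cd177, a neutrophil surface antigen (Pearson r = 0.995), Tbc1d10c (0.994) and Abi3 (0.993). Those closest to Hdac2 were Lars, Qser1 and Dhx9 (0.996, 0.994 and 0.994), and to Hdac1 Nme4, Ppm1f and Fam73a (0.989, 0.988 and 0.987). For Hdac4 they were Usp3, Ubap1 and Otud5 (0.975, 0.963 and 0.962), for Hdac3 Tfdp1, Eef2k and Nup210 (0.977, 0.968 and 0.968), and for Hdac10 Hilpda, Scrg1 and Clip2 (0.961, 0.953 and 0.952). Hdac8 came closest to 9930014A18Rik, Oosp1 and Fam126b (0.895, 0.885 and 0.881) and Hdac5 to Capn10, Fkbp8 and Atg101 (0.859, 0.844 and 0.816). The 12 libraries fall into 6 groups that share subset and treatment, so these values of log2(FPKM + 1) describe the group pattern and were given no test.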

How the data were processed

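RNA of sorted M-MDSCs and PMN-MDSCs was sequenced from stranded mRNA libraries as single reads of 101 bases. The authors deposited 1 table of FPKM values per library, made with TopHat2 2.1.1, Bowtie2 2.2.8, SAMtools 0.1.18 and Cuffdiff 2.2.1 on mm10 according to the submitters' processing notes. The annotation and the strand setting are not given in the sources used here. Depth was estimated from whole-read steps in FPKM values up to 0.3 of 3076 genes with transcripts of at least 1000 bases; 71.0 to 79.0% of values came within 0.1 of a whole read. Depth limits Hdac10, Hdac8 and Hdac11 most.

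Groups followed the labels. The 10 members, the gene lists and the comparisons were chosen with earlier results of these data known. Differences were tested with limma 3.58.1 (R 4.3.3, intensity trend, Benjamini-Hochberg adjustment over all genes tested) on log2(FPKM + 1), which understates changes of low genes. Genes needed 1 FPKM in at least 2 libraries. The 12 libraries shared 1 model for subset differences and differences of responses, and each subset's 6 libraries had their own model for inhibitor effects. Calls needed an adjusted p under 0.05 and a fold change above 1.5. The method was tested on simulated data. Named are all 10 HDAC genes, Hdac9, up to 4 called genes per list and comparison with the largest differences, and the 3 genes most correlated with each tested member; those of Hdac6 are not reported here. Alternatives covered the pseudocount, filter, scaling, fold limit, model, replicate block and each library left out. Figures and summaries used Python 3.11.15, pandas 2.3.3, numpy 2.4.6 and matplotlib 3.10.9.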

Additional observations from a re-analysis of the deposited data

Results flagged for a closer look

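For 2 of the 9 tested HDAC genes, the response to MS-275 differed between the subsets by the limma test of that difference (adjusted p under 0.05 over all genes tested), with neither past the fold limit. Of all genes tested, 30.99% passed the same threshold for this difference. The response of Hdac4 was 0.55 above that of M-MDSCs in PMN-MDSCs on the log2(FPKM + 1) scale (adjusted p = 0.00934). Hdac4 went from 15.0 and 13.8 FPKM under vehicle to 22.1 and 18.9 under MS-275 in PMN-MDSCs, and was at 9.996 and 10.5 and at 9.44 and 10.01 in M-MDSCs. The difference was 0.18 with TPM scaling. The response of Hdac1 was lower in PMN-MDSCs (-0.22, adjusted p = 0.0468, limma), with 56.4 and 58.0 FPKM under vehicle and 71.0 and 73.4 under MS-275 in PMN-MDSCs against 86.3 and 87.8 and 129 and 127 in M-MDSCs. The share of the FPKM taken by S100a8 and S100a9 was 10.2 to 13.7% in vehicle and 27.3 to 30.9% in inhibitor-treated PMN-MDSCs, and its part in either difference was not tested. With 2 libraries per group, no check for a library that stands apart was possible within a group.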

How the results depend on the processing

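Of 57 single-gene differences of the HDAC genes checked first, 21 were called. Of these 21, 0 changed direction under any alternative and 7 lost the call under at least 1. Of 1161 alternative values, 1100 kept direction and side of the threshold, 8 lost a call, 30 gained one and 23 changed direction. A further 42 differences, 0 of them called and those of Hdac2 against vehicle in PMN-MDSCs among them, gave 766 values, of which 47 changed direction. The cause was not tested for any of these changes. Without the fold limit, the adjusted p of limma alone called 7 HDAC genes between the subsets under vehicle, 7 under MS-275, 6 under CXD101 and 8 for the mean of the treatments, where 62.0, 74.5, 73.5 and 83.2% of all genes passed. It called 4 and 3 for MS-275 and CXD101 in PMN-MDSCs (53.7 and 45.3% of all genes), 3 and 3 in M-MDSCs (46.4 and 23.1%), and 2 for the difference of the MS-275 responses (30.99%). A fold limit of 2 left 1, 2 and 1 between the subsets under vehicle, MS-275 and CXD101, and 1 for the mean. It left 0 for each inhibitor in M-MDSCs. Counts over all genes are not reported here for this limit, a pseudocount of 0.1, no filter, the replicate block or each library left out. TPM scaling called 2 for MS-275 in each subset, and 4 and 1 for the differences of the MS-275 and CXD101 responses. Quantile normalization called 1 for the MS-275 responses (Hdac4). Over all genes, TPM scaling called 926 higher and 3519 lower for MS-275 in PMN-MDSCs and 1211 and 710 in M-MDSCs. For the differences of responses it called 374 and 2994 (MS-275) and 371 and 2460 (CXD101). Quantile normalization called 1079 and 1201 genes for the MS-275 responses. For MS-275 in M-MDSCs, 2 were called with a pseudocount of 0.1, without a filter or with quantile normalization. Median-of-ratios scaling, or sums that leave out S100a8 and S100a9, called 3. Of all genes, 955 were then called higher and 843 lower with quantile normalization. The counts were 1293 and 625 with median-of-ratios scaling, and 1296 and 625 with the sums. As deposited, 11078 genes were tested in M-MDSCs. TPM scaling moved the share of called genes that were higher from 50.6 to 35.1% (vehicle), 49.9 to 21.02% (MS-275), 49.9 to 22.3% (CXD101) and 50.2 to 23.7% (mean) between the subsets. The same share went from 50.7 to 20.8% and 55.4 to 19.0% for MS-275 and CXD101 in PMN-MDSCs, and from 47.7 to 11.1% and 52.6 to 13.1% for the differences of responses; sums without S100a8 and S100a9 gave 32.9% for MS-275 responses.

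TPM scaling turned Hdac5 between the subsets (-0.28 under MS-275, -0.45 under CXD101, -0.33 for the mean), Hdac4 between the subsets under CXD101 (-0.014), Hdac1 (-0.015 and -0.12) and Hdac3 (-0.11 and -0.093) under MS-275 and CXD101 in PMN-MDSCs, Hdac4 under CXD101 in PMN-MDSCs (-0.26), and the differences of responses of Hdac7 (-0.14 and -0.0020) and of Hdac4 to CXD101 (-0.30). Sums without S100a8 and S100a9 turned Hdac5 between the subsets under CXD101 (-0.017) and the Hdac4 difference of CXD101 responses (-0.016). Within class I alone, the vehicle difference between the subsets was 2.74 percentage points for Hdac3, -1.97 for Hdac1 and -1.68 for Hdac2, against -0.588, -7.68 and -3.97 among all 10 genes. With each library left out in turn, Hdac8 and Hdac5 under vehicle ranged from -0.10 to 0.045 and from -0.20 to 0.036, Hdac5 under CXD101 from -0.063 to 0.16, Hdac7 between the inhibitors from -0.030 to 0.15, and the Hdac4 difference of CXD101 responses from -0.032 to 0.083. Counts of called HDAC genes then ranged from 2 to 5 under vehicle (2 without PMN-MDSC vehicle replicate 1), from 4 to 5 under MS-275 (Hdac10 added), from 1 to 3 for MS-275 in PMN-MDSCs (3 without PMN-MDSC MS-275 replicate 2, Hdac4, Hdac7 and Hdac10), from 1 to 2 and from 0 to 1 for MS-275 and CXD101 in M-MDSCs (2 and 0 without M-MDSC vehicle replicate 1), and from 0 to 1 for the MS-275 responses, where Hdac4 was called without M-MDSC vehicle replicate 1, M-MDSC MS-275 replicate 2, PMN-MDSC vehicle replicate 1 or PMN-MDSC MS-275 replicate 2. Deviations of libraries with the same replicate number had correlations of -0.126 to 0.179 over 15 pairs of groups. With 2 libraries per group, these values cannot show whether M-MDSCs and PMN-MDSCs came from the same mice. A fit with the replicate number as a block called 4, 4 and 4 HDAC genes between the subsets and 5 for the mean. It called 1 for each inhibitor in each subset and 0 for the other comparisons, the counts without the block. That block does not model mice shared by the subsets within a treatment.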
